A study of Homo sapiens with 33 samples.

Results

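The genes described here are 37 glycolysis and hypoxia response genes. They are the rows of the deposited expression matrix whose gene name stands in a list. The list holds glucose transporters, glycolytic enzymes and their regulators, lactate and proton handling genes, and genes known to be induced at low oxygen. Measured values were not part of that rule, but the list was chosen with earlier results of these data known. All 37 were found among 58302 genes, and all 37 reached 100 CP20M in at least 1 library, where CP20M are read counts scaled to 20000000 per library.

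The study treated cell lines with palbociclib, an inhibitor of the cell cycle kinases CDK4 and CDK6, to describe the response of malignant pleural mesothelioma (MPM) cells to it. Of the MPM lines in this series, 4 responded to the drug and are called sensitive (H2052, H2452, H28, MSTO-211H), while MPP89, in which RB1 is mutated, was resistant. The other resistant line of the series, MeT-5A, comes from SV40-immortalized mesothelial cells. The study also tested further MPM lines, among them patient-derived ones, which are not part of this series. Cells received 1 µM palbociclib or 0.1% DMSO for 9 to 10 days, and 1 experiment of each sensitive line was also sampled 48 hours after the drug was washed out. The experiments with a washout were those treated for 10 days, and all others were treated for 9 days. There were 14 DMSO, 14 palbociclib and 4 washout libraries, and 1 library of untreated MeT-5A that entered no comparison. DMSO and palbociclib libraries of 1 experiment formed a pair, with 2 pairs of H2052, 3 each of H2452, H28 and MSTO-211H, 2 of MPP89 and 1 of MeT-5A. Replicates are repeat experiments on a single established line. Oxygen was not varied, and cell density and the age of the medium at harvest are not given in the sources used here.

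Glycolysis takes glucose, brought in by transporters such as GLUT1, through a chain of enzymes to pyruvate. Lactate dehydrogenase turns pyruvate into lactate, which monocarboxylate transporters carry across the membrane. When oxygen is low, prolyl hydroxylases stop marking the α subunits of the hypoxia-inducible factors (HIFs) for degradation, and HIFs then bind a short DNA core near many of these genes and raise their transcription.

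That core is RCGTG by its usual name, and its forms ACGTG and GCGTG were searched on both strands in the 250 bases before each RefSeq start site (GRCh38.p14), with the palindrome CACGTG counted once on each strand. Windows were found for 32 of the 37 genes, with 59 start sites, and SLC16A1, NDRG1, VEGFA, SLC2A3 and BNIP3L were not searched. A match was present in 35 of the 59 windows, or 59.3%, against 43.2% of 35116 windows of all genes. The 7 windows printed here belong to genes that carry the results below, and they run 5′ to 3′ in the direction of the gene. They are ADM (chr11:10304823-10305072, plus strand), HK2 (chr2:74834920-74835169, plus strand), P4HA1 (chr10:73096867-73097116, minus strand), LDHA (chr11:18394313-18394562, plus strand), ENO1 (chr1:8878687-8878936, minus strand), EGLN3 (chr14:33951075-33951324, minus strand) and P4HA2 (chr5:132227092-132227341, minus strand). Capitals mark the matches.
ADM: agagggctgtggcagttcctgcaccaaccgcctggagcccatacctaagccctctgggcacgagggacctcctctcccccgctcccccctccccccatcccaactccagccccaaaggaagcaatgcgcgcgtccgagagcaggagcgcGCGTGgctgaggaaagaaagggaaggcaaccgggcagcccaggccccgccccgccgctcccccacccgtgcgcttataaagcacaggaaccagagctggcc
HK2: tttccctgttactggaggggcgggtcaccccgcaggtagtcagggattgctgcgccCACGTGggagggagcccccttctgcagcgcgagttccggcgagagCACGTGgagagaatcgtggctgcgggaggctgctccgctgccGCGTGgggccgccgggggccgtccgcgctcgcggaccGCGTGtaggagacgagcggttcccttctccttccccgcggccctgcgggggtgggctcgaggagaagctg
P4HA1: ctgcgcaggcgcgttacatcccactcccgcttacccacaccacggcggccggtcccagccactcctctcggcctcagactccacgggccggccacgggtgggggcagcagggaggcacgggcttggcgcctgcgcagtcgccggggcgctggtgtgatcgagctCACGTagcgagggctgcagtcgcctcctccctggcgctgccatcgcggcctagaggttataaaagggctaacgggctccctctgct
LDHA: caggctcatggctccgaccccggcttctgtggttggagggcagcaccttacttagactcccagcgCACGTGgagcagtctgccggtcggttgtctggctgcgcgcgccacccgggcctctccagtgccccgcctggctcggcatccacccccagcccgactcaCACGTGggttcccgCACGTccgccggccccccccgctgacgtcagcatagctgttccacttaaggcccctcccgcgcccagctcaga
ENO1: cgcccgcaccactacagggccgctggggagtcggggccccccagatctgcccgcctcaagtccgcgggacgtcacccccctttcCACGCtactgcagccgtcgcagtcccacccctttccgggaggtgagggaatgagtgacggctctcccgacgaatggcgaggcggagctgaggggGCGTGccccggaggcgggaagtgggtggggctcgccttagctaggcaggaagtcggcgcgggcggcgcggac
EGLN3: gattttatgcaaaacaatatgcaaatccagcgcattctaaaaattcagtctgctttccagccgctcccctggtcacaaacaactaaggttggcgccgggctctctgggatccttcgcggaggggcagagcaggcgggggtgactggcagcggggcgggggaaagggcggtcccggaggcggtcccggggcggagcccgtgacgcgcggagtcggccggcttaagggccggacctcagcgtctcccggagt
P4HA2: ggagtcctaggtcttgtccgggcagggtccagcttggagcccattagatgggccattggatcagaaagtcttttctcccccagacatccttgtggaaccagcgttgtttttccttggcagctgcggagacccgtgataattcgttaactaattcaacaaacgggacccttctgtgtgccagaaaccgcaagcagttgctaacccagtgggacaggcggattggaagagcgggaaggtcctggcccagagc

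EGLN3 and P4HA2 held no match in these letters within these windows. HK2 held 6, LDHA 5, ENO1 2, and ADM and P4HA1 1 each. HK2 and LDHA each have another window that is not printed, with 3 matches for HK2 and 1 for LDHA. The printed windows of HK2, ENO1, EGLN3 and P4HA2 lie inside the annotated gene bodies. The unprinted HK2 window ends directly before the annotated gene start. Of the members with a window, 5 of the 8 that were called over the sensitive lines (below) and 21 of the 24 that were not called held a match in at least 1 window. The 5 include ALDOC, which was called lower. Genes with more windows have more chances of a match, and the share of all genes was not counted by gene.

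Each column of the matrix summed to 20007662 to 20021400 CP20M, which does not show the depth. Whole numbers skipped by the rounded values gave an estimate for 23 libraries, from 12800000 to 19800000 reads with a median of 16400000, and none for the other 10. At the lowest of these depths 1 read is worth 1.56 CP20M, so only the lowest values below rest on few reads. The 6 mesothelial markers summed to 729 to 32569 CP20M in the DMSO libraries, with WT1 and KRT19 at 0 in MeT-5A and PDPN at 0 in MSTO-211H. Of the leukocyte markers CD3E was at 0 in every library, PTPRC reached 42 CP20M, and CD68, which is not restricted to leukocytes, reached 1844. Of the 3 endothelial markers PECAM1 reached 120, VWF 44 and CDH5 28 CP20M, and no lung epithelial marker exceeded 62.

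H28 stood apart before any drug was given. In DMSO it had the highest mean of 26 of the 37 members, against 17.5% of all genes tested. For 23 of the 26 members each of its 3 libraries lay above every DMSO library of the other lines. The same held for 9.89% of all genes tested. With median-of-ratios scaling it held for 22 members and 10.7% of genes, and with upper-quartile scaling for 23 members and 14% of genes. Of the other lines, MeT-5A led all others in this way for 4 members (17.2% of genes), H2052 for 2 (8.11%), H2452 for 2 (7.44%), MSTO-211H for 1 (8.44%) and MPP89 for 0 (9.84%).

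SLC2A1, which encodes the glucose transporter GLUT1, was at 30210, 20812 and 28911 CP20M in the DMSO libraries of H28 and at no more than 5154 in any other line. PFKFB3, whose product makes the allosteric activator of phosphofructokinase, was at 20142, 22123 and 14316 CP20M in H28 and at no more than 2059 elsewhere, so that its mean was 9.16 times that of the next line, MeT-5A. VEGFA, the growth factor for blood vessels, was at 14037, 13132 and 20030 CP20M in H28 and at no more than 3056 elsewhere. None of these H28 libraries came near those of another line.

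The order was the same for PDK1, the kinase that restrains pyruvate dehydrogenase, at 3174, 3228 and 3513 CP20M in H28 and at most 1562 elsewhere. BNIP3, a mitophagy receptor, was at 6842, 7237 and 6702 CP20M in H28 and at most 2271 elsewhere. NDRG1, a stress gene induced by hypoxia and differentiation, was at 17738, 9500 and 13956 CP20M in H28 and at most 6053 elsewhere. The 23 genes spanned nearly all roles: SLC2A1, the enzymes GPI, PFKP, ALDOA, TPI1, GAPDH, PGK1, PGAM1, ENO2, PKM and LDHA, the regulators PDK1, PFKFB3 and PFKFB4, the lactate exporter SLC16A3, CA12, and the hypoxia response genes BNIP3, NDRG1, EGLN3, VEGFA, P4HA1, KDM3A and DDIT4.

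Other lines led for a minority of members. SLC2A3, the high-affinity transporter GLUT3, was at 1919 and 2121 CP20M in H2052 and at 1121, 760 and 1183 in MSTO-211H, but at 3, 0 and 2 in H2452. ADM, which encodes the vasodilator peptide adrenomedullin, was highest in H2052, at 2094 and 2607 CP20M, and at most 1074 elsewhere. CA9, a membrane carbonic anhydrase often used as a hypoxia marker, was at 340 CP20M in the MeT-5A library and at most 106 in any other DMSO library. Its next highest mean was that of H28, at 65.3 CP20M. HK1 and ENO1 led in H2452, PFKM in MSTO-211H, and PFKL, BNIP3L and P4HA2 in MeT-5A.

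By the F test in limma, 36 of the 37 members differed among the 6 lines (FDR under 0.05), as did 95.6% of all genes, so a difference between lines was the rule for any gene. ANKRD37 was the exception. For HK2, ALDOC and SLC16A1, led by H28, for LDHB, led by MSTO-211H, and for ANKRD37, led by H2452, the leading line overlapped the next.

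**Figure D1:**
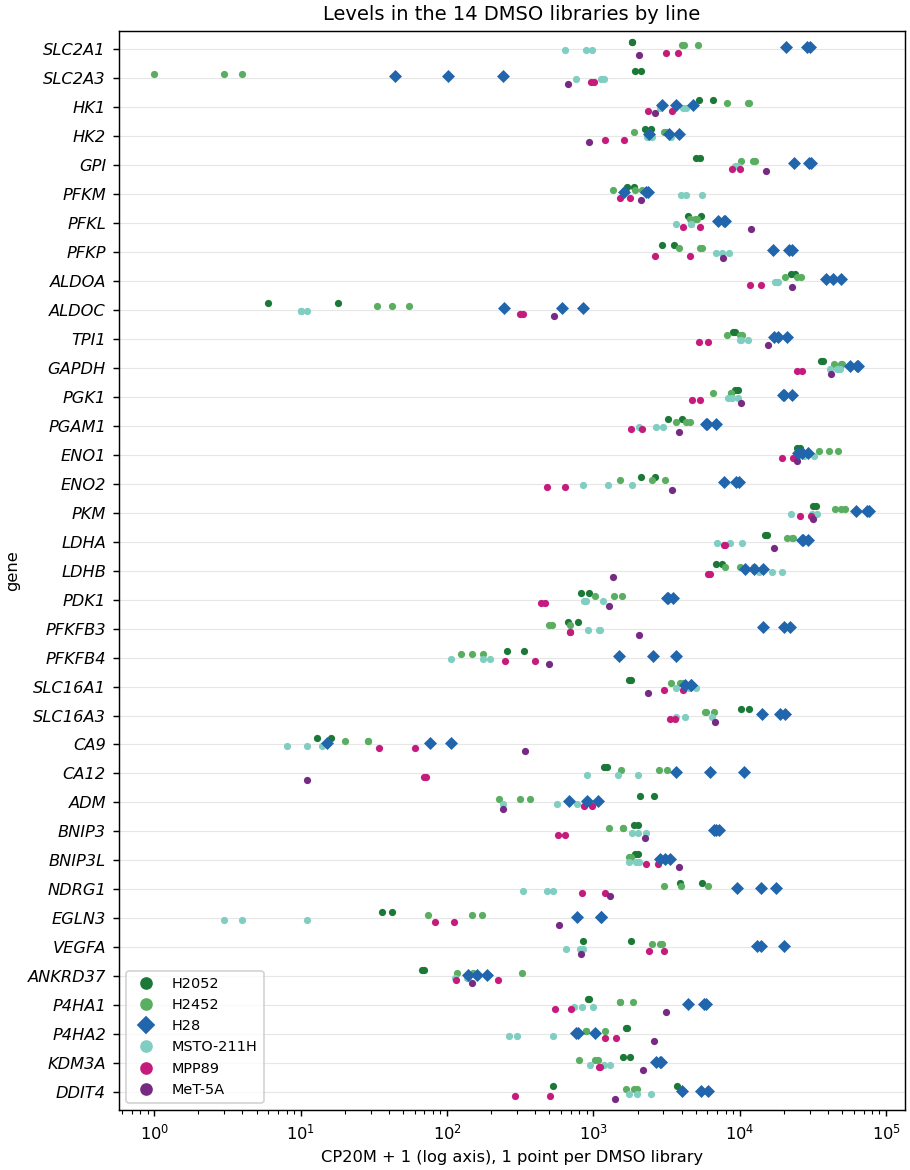
Level of each of the 37 genes in the 14 DMSO libraries, on a log axis of CP20M + 1, with 1 point per library and H28 as blue diamonds. H28 lies to the right of every other line for 23 genes, and not for genes such as SLC2A3, CA9, ADM and P4HA2.

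Levels of different genes were compared per kb of transcript. GAPDH was the most abundant member on this scale in all 6 lines, from 19862 ± 1139 CP20M per kb in MPP89 (SD, n = 2) to 47662 ± 3335 in H28 (SD, n = 3). ENO1, ALDOA and PKM filled the next places except in MSTO-211H, where LDHB, the heart-type lactate dehydrogenase subunit, ranked 3 at 12655 ± 2269 CP20M per kb (SD, n = 3), although PKM at 12631 ± 2563 did not differ from it beyond their spread.

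Lines drew on different isozymes of the same step, given here as shares of the summed CP20M per kb and not tested. PFKP made up 70.1% ± 4.25 of the 3 phosphofructokinases in DMSO in H28 (SD, n = 3) and 35.1% ± 0.848 in H2052 (SD, n = 2). LDHB made up 76.3% ± 5.46 of both lactate dehydrogenase subunits in MSTO-211H (SD, n = 3) and 11.9% in the single library of MeT-5A. SLC2A3 made up 49.3% ± 1.61 of both glucose transporters in H2052 (SD, n = 2) and 0.402% ± 0.291 in H28 (SD, n = 3).

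Some shares differed between DMSO and palbociclib. In H2052 the LDHB share was 45.1% ± 2.32 with DMSO and 19.6% ± 2.35 with palbociclib (SD, n = 2 each), without overlap. In H28 it was 43.8% ± 4.00 and 49.4% ± 3.24 (SD, n = 3 each), with overlap and in the other direction. The share of HK2, the inducible hexokinase, was 14.1% ± 0.963 with DMSO and 22.6% ± 1.68 with palbociclib in H2452 (SD, n = 3 each), without overlap. It was also higher without overlap in H2052, at 20.5% ± 1.5 and 31.9% ± 5.37 (SD, n = 2 each), and in MSTO-211H, at 32.3% ± 5.62 and 41.8% ± 4.03 (SD, n = 3 each). In H28 it was 34.8% ± 1.35 with DMSO and 28.4% ± 4.65 with palbociclib (SD, n = 3 each), in the other direction and without overlap. In resistant MPP89 the LDHB share was 57.4% ± 0.708 and 55.9% ± 1.68, and the HK2 share 23.8% ± 1.02 and 23.2% ± 0.418 (SD, n = 2 each). The ranges of both shares overlapped in MPP89.

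**Figure D2:**
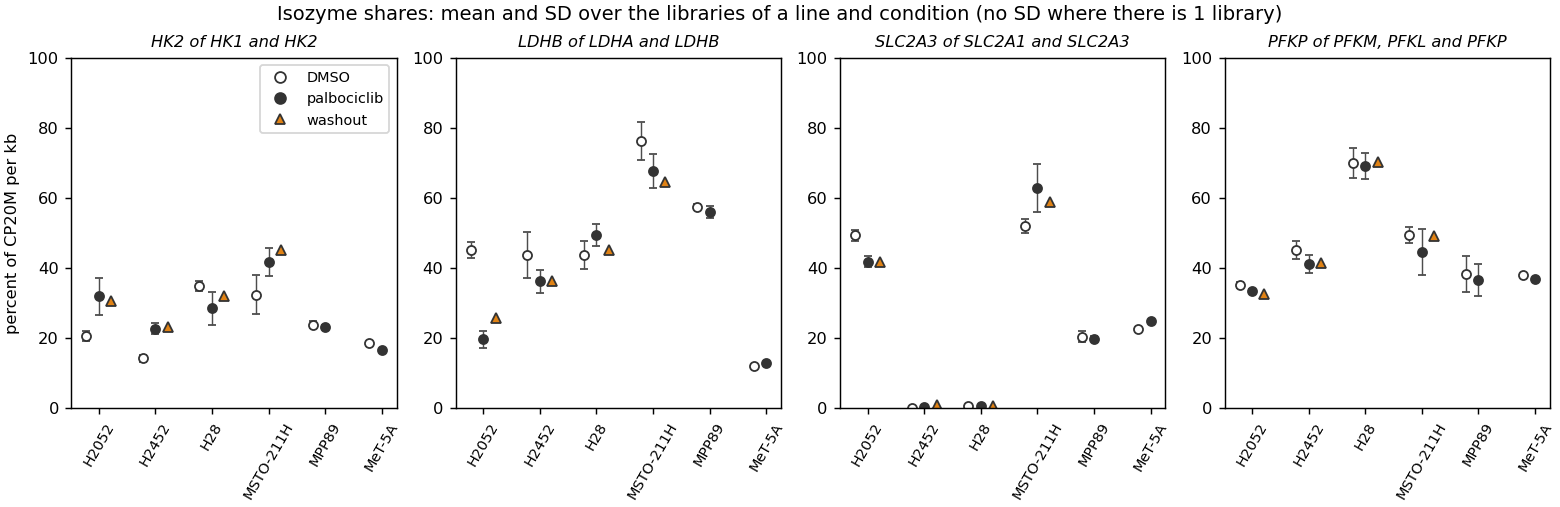
Share of 1 isozyme in the summed CP20M per kb of its family, in percent, by line and condition, as mean ± SD over libraries. The LDHB share of H2052 is 45.1% with DMSO and 19.6% with palbociclib, and the SLC2A3 share is near 0 in H2452 and H28.

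To see whether palbociclib changed these genes, libraries were compared over the 11 pairs of the sensitive lines. Genes of glucose uptake, HK2 and several hypoxia response genes rose. Most enzymes of the glycolytic chain were not called, as was true of most genes tested. Differences are on the log2(CP20M + 10) scale, which understates the change of low genes, and a gene was called at an FDR under 0.05 (limma, Benjamini-Hochberg over all genes) and a change above 1.5-fold. Called higher were 9 members, SLC2A1, SLC2A3, HK2, CA12, ADM, NDRG1, EGLN3, P4HA1 and P4HA2, where 5.58% of all genes were called higher. Called lower was 1 member, ALDOC, where 9.37% of all genes were called lower, so 10 of 37 members were called against 15% of all genes. In these bulk libraries fewer cells expressing a gene and less RNA per cell cannot be told apart.

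The members' median difference was 0.18 and that of all genes -0.11. With median-of-ratios scaling these medians were 0.38 and 0.06, with 11 members higher and 0 lower, and with upper-quartile scaling 0.35 and 0.04, with 10 higher and 0 lower. With the mean of each of the 4 lines as the unit, ADM, NDRG1, EGLN3 and CA12 were no longer called and 5 members were higher. Over all genes the split of higher against lower calls was 994 to 1669 as deposited, 1754 to 919 with median-of-ratios scaling and 1661 to 979 with upper-quartile scaling.

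**Figure D3:**
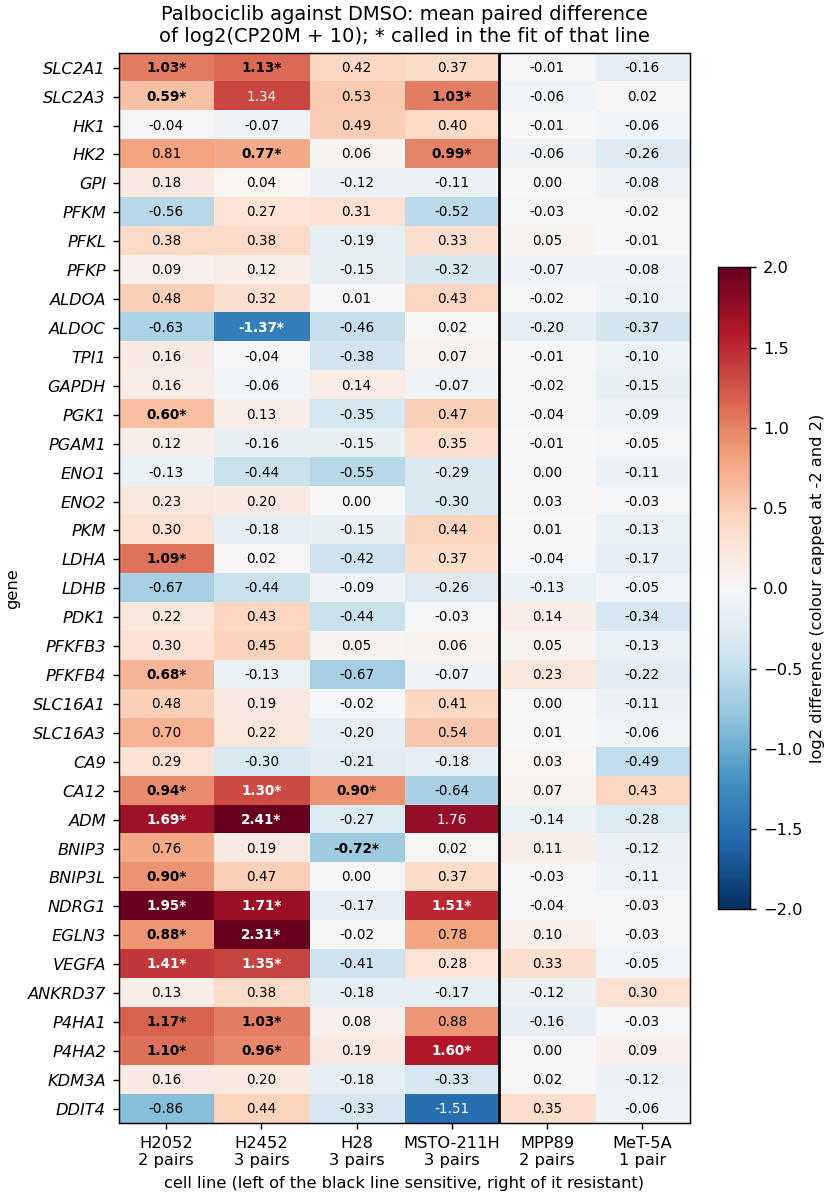
Mean paired difference between palbociclib and DMSO (log2) of each gene in each line, coloured within ±2, with an asterisk where the fit of that line called the gene. H2052 has 13 called genes, H2452 10, MSTO-211H 4, H28 2 and MPP89 0.

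The genes called are spread over the genome. On GRCh38 their annotated gene bodies are SLC2A1 (ENSG00000117394, chr1:42925353-42958893, minus strand), SLC2A3 (ENSG00000059804, chr12:7919230-8019007, minus strand), HK2 (ENSG00000159399, chr2:74834127-74893359, plus strand), ALDOC (ENSG00000109107, chr17:28573115-28576948, minus strand), CA12 (ENSG00000074410, chr15:63321378-63381846, minus strand), ADM (ENSG00000148926, chr11:10305073-10307397, plus strand), EGLN3 (ENSG00000129521, chr14:33924227-34462774, minus strand), P4HA1 (ENSG00000122884, chr10:73007217-73096974, minus strand) and P4HA2 (ENSG00000072682, chr5:132190147-132295315, minus strand), together with NDRG1 (ENSG00000104419). Counts cover the exons of each gene as a whole and do not separate transcripts.

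Both glucose transporters rose. SLC2A1 was at 1828 and 1845 CP20M with DMSO in H2052 and at 3551 and 3962 with palbociclib, and at 5154, 4014 and 4172 against 10495, 7826 and 11111 in H2452. In H28 it was at 30210, 20812 and 28911 against 40778, 22326 and 47785, and in MSTO-211H at 979, 636 and 882 against 1015, 837 and 1413. It was higher with palbociclib in 11 of 11 pairs, and the groups were separate in H2052 and H2452 but overlapped in H28 and MSTO-211H. The pooled difference was 0.71 (SE 0.12, limma adjusted p = 0.000294), or 1.64-fold, and it was 0.55 without H2452, under the fold limit.

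SLC2A3 rose in 11 of 11 pairs by 0.90 (SE 0.15, limma adjusted p = 0.000269). In H2052 it was at 1919 and 2121 CP20M with DMSO and at 3015 and 3072 with palbociclib, and in MSTO-211H at 1121, 760 and 1183 against 2754, 1478 and 2126. Palbociclib libraries lay above the DMSO libraries in both lines. The values in H2452 were 3, 0 and 2 against 17, 6 and 48, which rest on few reads. Its pseudogene SLC2A3P1 had a mean of 634 CP20M and was at 259 or more in every library, also in those of H2452. The SLC2A3 values are uncertain to the extent that reads were split between these copies, which was not tested.

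HK2, which phosphorylates glucose in the first step, was called, and its relative HK1 was not (0.22, limma adjusted p = 0.0515). HK1 was 0.42 with median-of-ratios scaling (limma adjusted p = 0.00184) and 0.39 with upper-quartile scaling (limma adjusted p = 0.00237). Both passed the FDR but not the fold limit. HK2 was at 3131, 1901 and 3035 CP20M with DMSO in H2452 and at 4297, 4039 and 5138 with palbociclib, and at 2324, 2525 and 3389 against 5959, 4249 and 6253 in MSTO-211H. In H2052 it was at 2461 and 2247 against 3565 and 4786, and in H28 at 3821, 2394 and 3259 against 3557, 1931 and 4866. The groups were separate in all lines but H28. The pooled difference was 0.64 (SE 0.13, limma adjusted p = 0.00157), with 9 of 11 pairs higher. It was 0.57 without pair 1 of MSTO-211H and 0.51 without that line, both under the fold limit.

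Of the 7 upper glycolysis enzymes 0 were called higher and 1 lower. ALDOC, the brain-type aldolase, was at 54, 32 and 41 CP20M with DMSO in H2452 and at 9, 9 and 12 with palbociclib, so these values rest on few reads. Its pooled difference was -0.61 (SE 0.18, limma adjusted p = 0.0113), with 9 of 11 pairs lower. The call was lost with either other scaling, without pair 1 of H2052, without any single pair of H2452 and without pair 2 of H28. The main aldolase ALDOA was 0.30 higher (limma adjusted p = 0.00749), under the fold limit, and GPI, PFKM, PFKL, PFKP and TPI1 lay between -0.08 and 0.21. With median-of-ratios scaling ALDOA was 0.49 (limma adjusted p = 0.00144) and PFKL 0.41 (limma adjusted p = 0.00383). Both then passed the FDR but not the fold limit, while GPI, PFKM, PFKP and TPI1 did not pass the FDR. GPI, PFKM, PFKP and TPI1 turned from below to above 0 with either other scaling.

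None of the 6 lower glycolysis enzymes was called over the 11 pairs. ENO1, the main enolase, was lower in 11 of 11 pairs by a small amount, -0.37 (SE 0.07, limma adjusted p = 0.000989), but only -0.18 with median-of-ratios scaling (limma adjusted p = 0.125). Its libraries in H28 were at 29226, 25158 and 26605 CP20M with DMSO and at 18754, 17374 and 19192 with palbociclib, without overlap. GAPDH, PGK1, PGAM1, ENO2 and PKM differed by 0.01 to 0.18. With median-of-ratios scaling PGK1 was 0.38 (limma adjusted p = 0.0235), PGAM1 0.23 (limma adjusted p = 0.0377) and PKM 0.28 (limma adjusted p = 0.0492). These passed the FDR but not the fold limit, while GAPDH and ENO2 did not pass the FDR. With upper-quartile scaling only PGK1 of these enzymes passed the FDR. PGK1, which yields the first ATP of the chain, was called in H2052, at 9339 and 9678 CP20M with DMSO and 13471 and 15494 with palbociclib (0.60, SE 0.11, limma adjusted p = 0.049). In H28 it was at 22604, 19601 and 20037 against 17060, 16399 and 15432, below DMSO without overlap.

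The lactate dehydrogenase subunits went separate ways in H2052. LDHA, which favours lactate formation, was at 15309 and 14834 CP20M with DMSO and at 31819 and 32384 with palbociclib, a rise of 1.09 (SE 0.13, limma adjusted p = 0.039). LDHB was at 6855 and 7584 against 4983 and 4105, a difference of -0.67 (SE 0.14, limma adjusted p = 0.0586). In H28 LDHA was at 29360, 26435 and 26888 CP20M with DMSO and at 20013, 22111 and 19638 with palbociclib. LDHA thus lay higher with palbociclib in H2052 and lower in H28, without overlap in either line. Over the 11 pairs LDHA was not called (0.19, limma adjusted p = 0.311), and LDHB was -0.34 (limma adjusted p = 0.0066), under the fold limit and -0.14 with median-of-ratios scaling.

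Of the 3 regulators and the 2 monocarboxylate transporters 0 were called. PFKFB3 differed by 0.21, PDK1 by 0.03 and PFKFB4 by -0.11, the last turning above 0 with either other scaling. SLC16A1, the transporter MCT1, was 0.24 higher (limma adjusted p = 0.0132) and SLC16A3, the exporter MCT4, 0.28 (limma adjusted p = 0.0737). With median-of-ratios scaling PFKFB3 was 0.40 (limma adjusted p = 0.00688), SLC16A1 0.44 (limma adjusted p = 0.000845) and SLC16A3 0.48 (limma adjusted p = 0.00901). With either other scaling these genes passed the FDR but not the fold limit, while PDK1 and PFKFB4 did not pass the FDR. PFKFB4 was called in H2052 alone of the 4 lines, at 257 and 333 CP20M with DMSO and 415 and 546 with palbociclib.

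Of the carbonic anhydrases, which help to handle protons at the cell surface, CA12 was called and CA9 was not (-0.13, limma adjusted p = 0.48). CA12 was at 2800, 1539 and 3172 CP20M with DMSO in H2452 and at 7556, 2869 and 9542 with palbociclib, and at 6283, 3673 and 10751 against 12382, 6035 and 21670 in H28. In MSTO-211H it was at 2009, 1460 and 904 against 824, 1246 and 670, lower in all 3 pairs. CA12 was higher in every pair of H2052, H2452 and H28. Its pooled difference of 0.60 (SE 0.23, limma adjusted p = 0.0435) was only just past both limits and was lost when any single pair of H2052, H2452 or H28 was left out.

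Of the secreted products, ADM rose over the 11 pairs, by 1.37 (SE 0.32, limma adjusted p = 0.00295), or 2.59-fold. It was at 2094 and 2607 CP20M with DMSO in H2052 and at 7370 and 7781 with palbociclib, and at 368, 224 and 316 against 1348, 1331 and 2369 in H2452. In MSTO-211H it was at 774, 559 and 240 against 2282, 1062 and 1742, and in H28 at 1074, 680 and 902 against 833, 444 and 1012. ADM was separate between groups in H2052, H2452 and MSTO-211H, and overlapped in H28.

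VEGFA missed the threshold over the 11 pairs (0.59, SE 0.24, limma adjusted p = 0.0547) and was called in H2052 and H2452. In H2452 it was at 2837, 2957 and 2529 CP20M with DMSO and at 5830, 8759 and 6928 with palbociclib. In H28 it was at 14037, 13132 and 20030 against 11826, 9450 and 13973. Every pair was higher in H2452 and lower in H28. Without H28 its difference was 0.96 and was called, and it was also called without any single pair of H28, without pair 1 of MSTO-211H and with either other scaling.

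Of the dioxygenases that need oxygen and 2-oxoglutarate, 3 of 4 rose. EGLN3, a HIF prolyl hydroxylase that HIF itself induces, was at 172, 147 and 73 CP20M with DMSO in H2452 and at 798, 841 and 410 with palbociclib, and its pooled difference was 1.00 (SE 0.25, limma adjusted p = 0.00543). In H28 EGLN3 was at 1133, 767 and 1124 against 1025, 753 and 1225, with overlap, and in H2052 at 41 and 35 against 77 and 79. In MSTO-211H it was at 10, 3 and 2 against 17, 9 and 21, which rest on few reads. Without H2452 the pooled difference of EGLN3 was 0.51, under the fold limit. P4HA1, a collagen prolyl hydroxylase subunit, was at 920 and 938 against 2068 and 2148 in H2052 and at 1510, 1875 and 1528 against 2787, 3660 and 3635 in H2452. It was at 829, 987 and 733 against 1760, 1278 and 1677 in MSTO-211H. In H28 it was at 4434, 5831 and 5670 against 5453, 6184 and 5153, with overlap. Its pooled difference was 0.76 (SE 0.14, limma adjusted p = 0.000535).

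P4HA2, its relative, was higher in 11 of 11 pairs, by 0.95 (SE 0.16, limma adjusted p = 0.000426). It was at 532, 262 and 299 CP20M with DMSO in MSTO-211H and at 1562, 631 and 1252 with palbociclib, without overlap. In H28 it was at 785, 759 and 1021 against 901, 807 and 1245, with overlap. The antisense gene P4HA2-AS1 had a mean of 199 CP20M. As the strand setting of the counting is not given in the sources used here, sense and antisense reads cannot be told apart with certainty. KDM3A, a histone demethylase, was not called (-0.06, limma adjusted p = 0.647) and turned above 0 with either other scaling.

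Among the mitophagy receptors and stress genes only NDRG1 was called with the values as deposited. It was at 3902 and 5533 CP20M with DMSO in H2052 and at 17376 and 18692 with palbociclib, at 6053, 3016 and 3993 against 14469, 9471 and 18582 in H2452, and at 480, 528 and 329 against 915, 1472 and 1502 in MSTO-211H. In H28 it was at 17738, 9500 and 13956 against 13999, 6190 and 19124. The groups were separate in the first 3 lines and overlapped in H28. The pooled difference was 1.19 (SE 0.26, limma adjusted p = 0.00203), or 2.28-fold, with 9 of 11 pairs higher.

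BNIP3L, a mitophagy receptor like BNIP3, was 0.39 higher (limma adjusted p = 0.00439), under the fold limit. With median-of-ratios scaling it was 0.590 (limma adjusted p = 0.000728), just past the fold limit, and so was called. With upper-quartile scaling it was 0.567 (limma adjusted p = 0.00194) and not called. BNIP3L was called in H2052, at 1933 and 2000 CP20M with DMSO and 3580 and 3779 with palbociclib (0.90, SE 0.07, limma adjusted p = 0.0363). BNIP3 and ANKRD37 were near 0. DDIT4, an inhibitor of mTORC1 signalling, differed by -0.54 (limma adjusted p = 0.122). Its DMSO replicates in H2052 were 531 and 3714 CP20M, a wide spread, and the antisense gene DDIT4-AS1 had a mean of 1224 CP20M. DDIT4 was called lower when H2452 was left out, at -0.90.

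**Figure D4:**
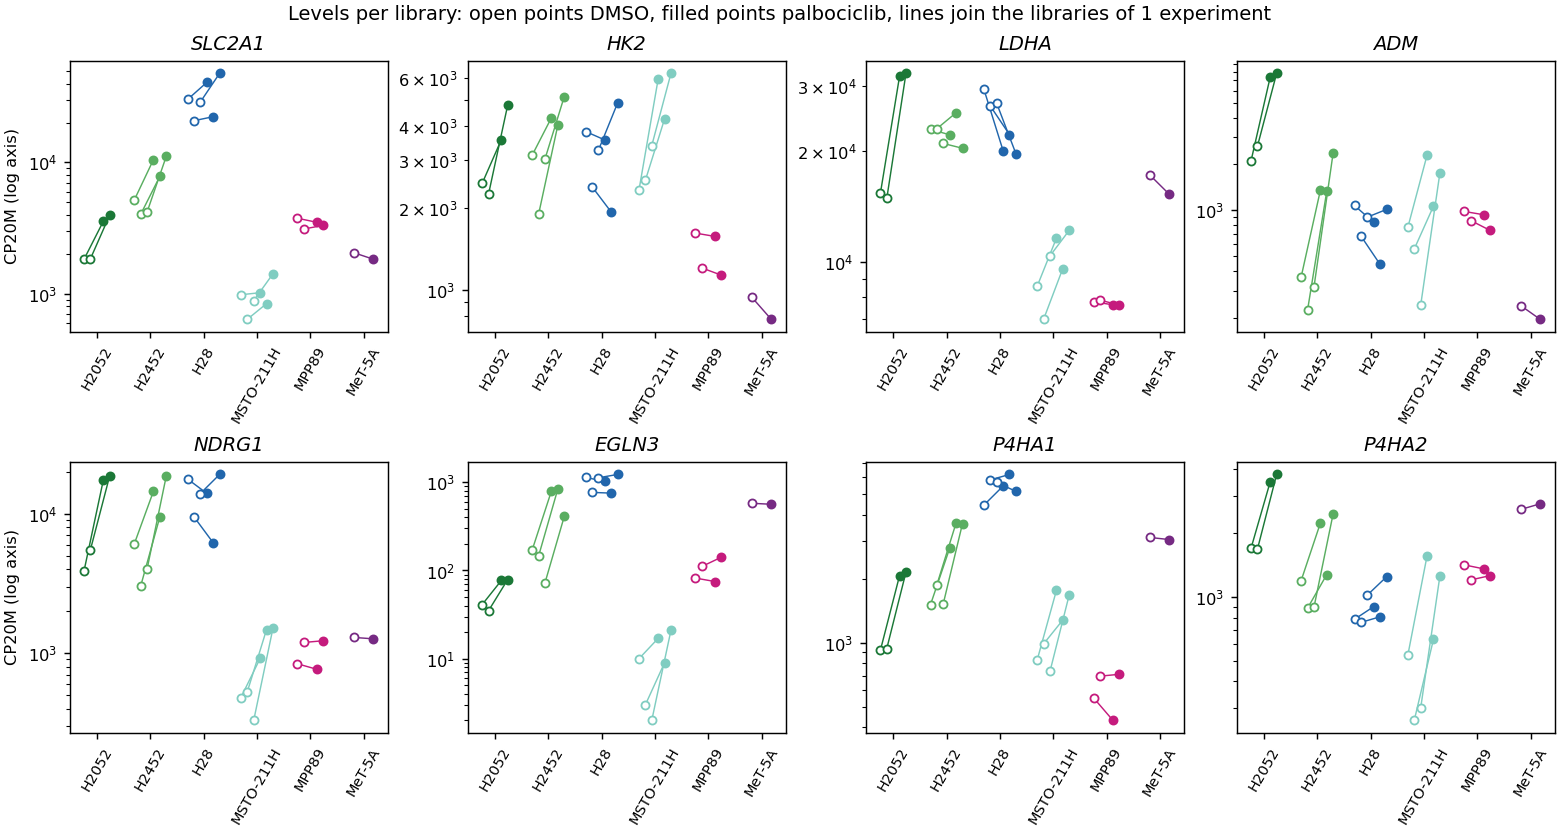
CP20M of SLC2A1, HK2, LDHA, ADM, NDRG1, EGLN3, P4HA1 and P4HA2 in each library on a log axis, with open DMSO and filled palbociclib points joined within an experiment. SLC2A1 and P4HA2 rise in 11 of 11 pairs of the sensitive lines, while LDHA with palbociclib lies above DMSO in H2052 and below it in H28.

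Line by line, 16 members were called in at least 1 sensitive line, 3 of them in 3 lines (CA12, NDRG1 and P4HA2) and 0 in all 4. These counts across lines were not made for all genes, so whether they are unusual was not tested. H2052 had 13 called higher and 0 lower, against 4.67% and 13% of all genes. H2452 had 9 higher and 1 lower, against 6.04% and 10.8%. MSTO-211H had 4 higher and 0 lower, against 5.9% and 7.94%. H28 had 1 higher, CA12, and 1 lower, BNIP3, against 5.89% and 7.34%. These fits have few residual degrees of freedom, and leaving out 1 pair left 0 calls in H28 and in MSTO-211H and 0 to 3 in H2452. The fits share libraries with the fit over 11 pairs and are no independent evidence.

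In H28, 5 members were higher in all 3 pairs and 17 lower, whereas the counts were 25 and 5 in H2452, 18 and 7 in MSTO-211H, and 28 and 4 over both pairs of H2052. Of all genes 25.5% were higher and 35.8% lower in all pairs of H28, 23.3% and 43.3% in H2452, 22.7% and 37.0% in MSTO-211H, and 21.9% and 58.1% in H2052. The members' median difference was -0.15 in H28, 0.22 in H2452, 0.28 in MSTO-211H and 0.38 in H2052, where that of all genes was -0.05, -0.10, -0.11 and -0.24. In H28 the members' median depended on the scaling, at -0.015 with median-of-ratios and -0.098 with upper-quartile scaling, where that of all genes was 0.05 and -0.0084. BNIP3 was at 6842, 7237 and 6702 CP20M with DMSO in H28 and at 3927, 4686 and 4055 with palbociclib, a fall by 0.72 (SE 0.07, limma adjusted p = 0.0266). Its groups did not overlap. With median-of-ratios scaling the difference was -0.58, under the fold limit, so that it was not called. In H2052 it was at 2000 and 1886 against 2733 and 3975.

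The response differed among the 4 sensitive lines for 24 members (F test in limma, FDR under 0.05), against 37.1% of all genes. H28 had the lowest response for 17 of the 24, and H2052 the highest for 12. How often these lines were lowest or highest among all genes was not counted. The differences between the highest and lowest line were 2.68 for ADM, 2.32 for EGLN3 and 2.12 for NDRG1 on the log2 scale. H28 was also the line with the highest DMSO level of most members. Proliferation markers fell in it too: 6 of 6 (MKI67, TOP2A, CCNB1, CDK1, MCM2 and PCNA) were called lower in H28, as in H2052 and H2452, against 2 of 6 in MSTO-211H. Their part in the members' differences was not tested.

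In the resistant lines no member passed the test. In MPP89 0 were called, as were 0% of all genes, and 2 members had an unadjusted p under 0.05, VEGFA and LDHB, where 5.16% of all genes did. Over the 3 pairs of both lines 0 were called, again with 0% of all genes, and 4 members had an unadjusted p under 0.05, where 7.07% of genes did. ADM, for example, was at 982 and 857 CP20M with DMSO in MPP89 and at 935 and 740 with palbociclib, and at 239 against 195 in MeT-5A. NDRG1 was at 838 and 1192 against 766 and 1226 in MPP89 and at 1295 against 1266 in MeT-5A. These values overlapped in MPP89.

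The difference between the 2 classes was tested directly, with libraries shared with the comparisons above. Of the 37 members 0 passed an FDR of 0.05, against 9.37% of all genes (1.56% with a higher and 7.81% with a lower response in sensitive lines). An unadjusted p under 0.05 was found for 10 members, and the share of all genes with it is not given here. The lowest adjusted values in limma were 0.0514 for SLC2A1 (difference 0.77, SE 0.24), 0.0549 for SLC2A3 (0.93, SE 0.29) and 0.0567 for P4HA1 (0.87, SE 0.27). With median-of-ratios scaling 3 members passed, where 764 of all genes passed with a higher and 512 with a lower response in sensitive lines. With upper-quartile scaling 2 members passed, where 621 and 500 genes did. The rise in sensitive lines is therefore not shown to differ from the resistant lines at this threshold with 3 resistant pairs.

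Washout asked what remained 48 hours after the drug was removed, in 1 experiment of each sensitive line, with DMSO and palbociclib libraries of the same experiments shared by both comparisons. Against DMSO 4 members were called higher, HK2, ADM, NDRG1 and P4HA2, and 0 were lower, where 2.81% of all genes were called higher and 2.95% lower, 5.76% in all. Against palbociclib 0 members were called, where 1.4% of genes were, and 1 had an unadjusted p under 0.05, SLC2A1 (-0.41, limma adjusted p = 0.16). Of the 6 proliferation markers, in contrast, 5 were called higher than with palbociclib after washout.

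HK2 was at 2247 CP20M with DMSO, 4786 with palbociclib and 3773 after washout in H2052, and remained 0.66 above DMSO over the 4 lines (SE 0.10, limma adjusted p = 0.00594). ADM was 1.55 above DMSO (SE 0.39, limma adjusted p = 0.0344), NDRG1 1.11 (SE 0.26, limma adjusted p = 0.0287) and P4HA2 1.06 (SE 0.26, limma adjusted p = 0.0313). SLC2A1 was 0.56 above DMSO (limma adjusted p = 0.0206), under the fold limit. With 1 library per line and condition these calls were thin: 0 were left without MSTO-211H, 1 without H2052, 1 without H2452 and 5 without H28.

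By sign alone, 13 of the 37 members lay below palbociclib after washout in all 4 lines, where 7.96% of all genes did, and 8 above DMSO in all 4, where 12.1% of all genes did. Both counts moved when libraries were rescaled, to 21 (22.0% of genes) and 10 (17.9%) by median of ratios, and by upper quartile to 28 (30.0%) and 7 (13.2%). The median of all genes after washout against palbociclib was 0.09 as deposited, -0.04 with median-of-ratios and -0.09 with upper-quartile scaling. SLC2A1, HK2, ALDOA, NDRG1 and P4HA2 lay between the other conditions in every line, where 2.29% of all genes did. The H28 washout belongs to pair 3, where the palbociclib difference was 0.58 for HK2, 0.28 for ALDOA and 0.45 for NDRG1. In the other H28 pairs these differences were -0.10 and -0.31, -0.13 and -0.10, and -0.34 and -0.62. SLC2A1 and P4HA2 were higher in every H28 pair. PFKP, ENO1 and LDHB were above DMSO in 0 of the 4 lines, where the same held for 21.8% of all genes, and ENO1 (-0.39, limma adjusted p = 0.0465) and LDHB (-0.43, limma adjusted p = 0.0498) passed the FDR but not the fold limit.

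**Figure D5:**
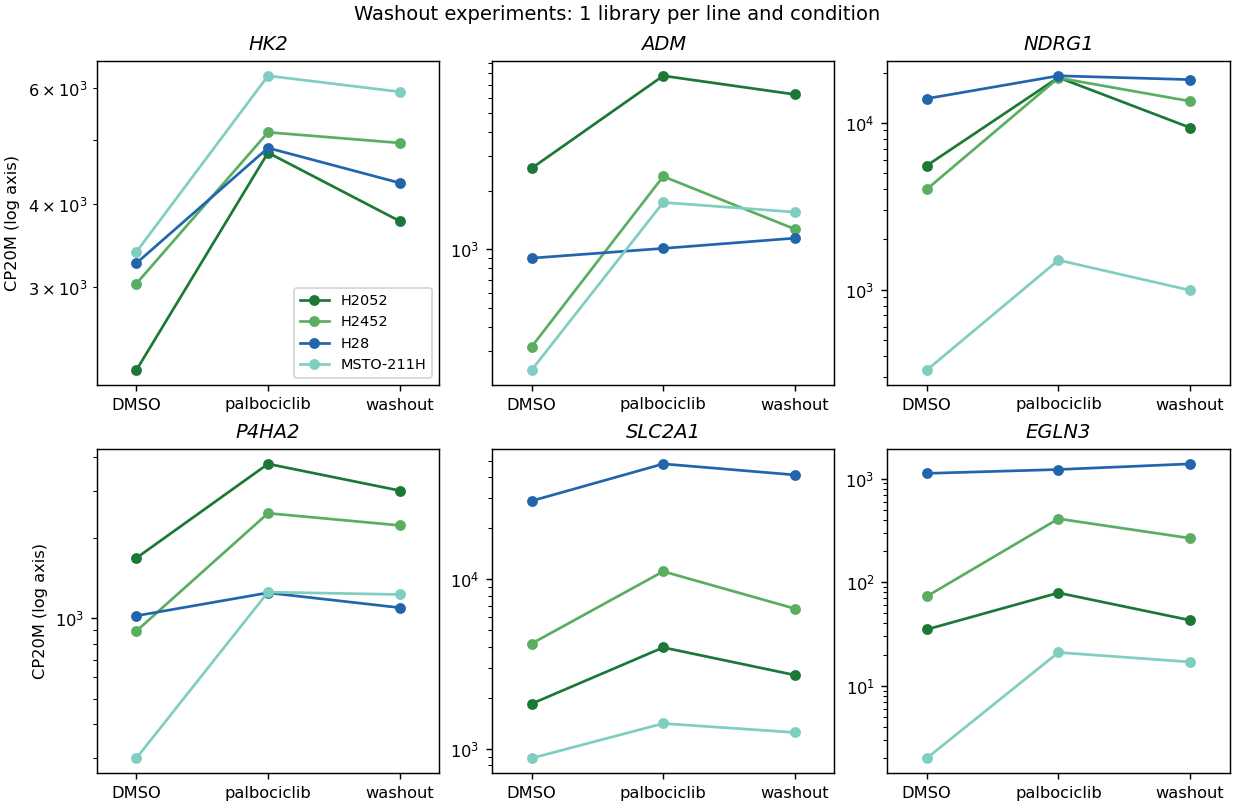
CP20M of HK2, ADM, NDRG1, P4HA2, SLC2A1 and EGLN3 with DMSO, with palbociclib and 48 hours after washout in the 4 sensitive lines, with 1 library per line and condition. HK2, NDRG1, P4HA2 and SLC2A1 lie between DMSO and palbociclib after washout in all 4 lines. In the H28 pairs not shown here, HK2, ADM, NDRG1 and EGLN3 were lower with palbociclib than with DMSO.

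Other genes of these pathways were read from lists that, like the members, were chosen with earlier results known, over the 11 pairs. In that comparison 5.58% of all genes were called higher and 9.37% lower, and the median of all genes was -0.11. Of 35 other hypoxia targets tested, 13 were called higher and 0 lower, with a median difference of 0.38. The largest were ANGPTL4, a secreted inhibitor of lipoprotein lipase, at 2.53 (SE 0.47, limma adjusted p = 0.000647), and PPP1R3C, a glycogen-targeting phosphatase subunit, at 1.48 (SE 0.14, limma adjusted p = 5.10e-06). Of 11 genes of the HIF machinery 1 was called, EPAS1, which encodes HIF-2α, at 0.66 (SE 0.13, limma adjusted p = 0.000782), and the list's median was -0.01.

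Of 19 further glycolysis genes tested, 4 were called higher and 0 lower (median 0.21), against the same 5.58% and 9.37% of all genes, led by the transporter SLC2A6 at 0.87 and the muscle-type mutase PGAM2 at 0.82. The pentose phosphate pathway, which branches from glycolysis to make NADPH and ribose, had 0 higher and 2 lower of 7 (median -0.30, all genes -0.11), TKT at -0.89 (SE 0.11, limma adjusted p = 4.45e-05) and RPIA at -0.61 (SE 0.09, limma adjusted p = 8.09e-05). Of 12 genes of pyruvate entry into mitochondria 0 were called (median -0.12), with 6 at an unadjusted p under 0.05, where 55.2% of all genes were.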

How the data were processed

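RNA-seq of 33 libraries was analysed from a matrix of 58302 genes. Per the labels and methods, the authors trimmed reads with Trimmomatic 0.36, mapped them with STAR 2.5.3 to GRCh38, counted them with HTSeq 0.9.1 on Ensembl release 90 and called genes with DESeq2. The deposited values are a normalized score, counts per 20000000 reads rounded up to whole numbers, so no count model was used here. Columns holding no sample numbered 0.

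The 17803 genes that reached 100 CP20M in 1 or more libraries were fitted as log2(CP20M + 10) with limma 3.58.1 (eBayes with trend) in R 4.3.3, the experiment as a block, with Benjamini-Hochberg adjustment over all genes and limits of FDR 0.05 and 1.5-fold. The fold limit was left out for the difference between classes and for F tests. The pairing comes from the methods, which match treated with control libraries by experiment. Deviations from group means correlated within pairs with r from 0.181 to 0.783 across genes. The washout fit used the line as a block. Promoter windows on chromosome 8 were left out. The fits were tested on simulated data. Shares and levels per kb used MANE transcript lengths. Members in full are those called over the 11 pairs or in at least 1 line, and other lists are given by counts with up to 2 largest rises and falls. The members and lists were chosen with earlier results of these data known. P-values of the fits of 1 line and of the F tests measure the spread between repeat experiments. In fits over several lines with 1 treatment effect, they also measure differences in response between lines. In the washout fit, with 1 library per line and condition, the spreads between lines and between experiments cannot be told apart. Alternatives were the block, pseudocount, filter, scaling, trend, a single fit and leaving out libraries. Of the leukocyte markers, 1 is not reported here.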

Additional observations from a re-analysis of the deposited data

Results flagged for a closer look

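The response to palbociclib differed among the 4 sensitive lines for 24 members, by an F test in limma of the difference itself (FDR under 0.05). The values here are the mean difference of the highest line minus that of the lowest line, on the log2 scale. Among the transporters and glycolytic enzymes this range was 0.76 for SLC2A1, 0.56 for HK1, 0.94 for HK2, 0.87 for PFKM, 0.58 for PFKL, 1.39 for ALDOC and 0.54 for TPI1. It was 0.95 for PGK1, 0.51 for PGAM1, 0.62 for PKM and 1.51 for LDHA. Among regulators and lactate transporters it was 0.87 for PDK1, 1.35 for PFKFB4, 0.50 for SLC16A1 and 0.90 for SLC16A3. Among pH and hypoxia response genes it was 1.95 for CA12, 2.68 for ADM, 1.48 for BNIP3, 0.90 for BNIP3L, 2.12 for NDRG1, 2.32 for EGLN3, 1.82 for VEGFA, 1.09 for P4HA1 and 1.41 for P4HA2. H28 was the lowest line for 17 of the 24, and its share among all genes was not counted.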

How the results depend on the processing

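Over the 11 pairs, 5 members were called higher with line means as units and 6 to 9 when a pair or a whole line was left out. The single member called lower was lost (0) without the replicate block, with a pseudocount of 50, with median-of-ratios or upper-quartile scaling and with line means, and 0 to 1 remained when a pair or line was left out. Leaving out a whole line was chosen after seeing the data. In H2052 the 13 calls became 7 with a pseudocount of 1, 0 with no filter, 20 with upper-quartile scaling, 0 without the trend, and 9 to 16 without 1 pair, where the lone pair is assumed to vary like those of the other lines. In H2452 the 10 calls became 0 with no filter and 0 to 3 without 1 pair. In H28 the 2 calls became 1 without the replicate block, 0 with no filter and 0 without any 1 pair. In MSTO-211H the 4 calls became 0 with no filter, 7 with the filter within the fit, 9 with all lines in a single fit and 0 without any 1 pair. For the difference between sensitive and resistant lines, 0 became 1 without the replicate block, 1 with a pseudocount of 50, 3 with median-of-ratios scaling, 2 with upper-quartile scaling and 0 to 6 without 1 pair. The 24 members that differed among sensitive lines became 9 without the replicate block, 13 with no filter and 15 to 24 without 1 pair. The 4 members above DMSO after washout became 0 without the replicate block, 1 with no filter and 0 to 5 without 1 line. The causes were not tested.

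Several members with small pooled differences changed sign. With median-of-ratios scaling GPI was 0.18, PFKM 0.11, PFKP 0.12, TPI1 0.13, PFKFB4 0.076, BNIP3 0.20 and KDM3A 0.14. With upper-quartile scaling they were 0.15, 0.0888, 0.0945, 0.10, 0.0526, 0.17 and 0.12. BNIP3 was 0.0627 with line means as units. When a pair or line was left out, the ranges were -0.10 to 0.11 for ANKRD37, -0.17 to 0.27 for BNIP3, -0.0531 to 0.13 for ENO2, -0.0103 to 0.0691 for GAPDH, -0.0652 to 0.0244 for GPI, -0.15 to 0.0474 for KDM3A, -0.0106 to 0.42 for LDHA, -0.12 to 0.21 for PDK1, -0.29 to 0.0959 for PFKFB4, -0.23 to 0.0803 for PFKM, -0.15 to 0.0133 for PFKP, -0.0858 to 0.10 for PGAM1, -0.0499 to 0.18 for PKM and -0.12 to 0.0501 for TPI1. Over all single genes and alternatives, 1042 values kept direction and side of the threshold, 163 lost it, 10 gained it and 54 changed sign. Depth limits only the lowest genes, such as SLC2A3 in H2452, EGLN3 in MSTO-211H, ALDOC and CA9.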
